A study of Rattus norvegicus with 6 samples.

Results

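Adipocytes fill the fat layer beneath the dermis, and in rodent skin a further fat layer lies within the dermis around the hair follicles. They take up fatty acids from blood lipids, store them as triglyceride and secrete hormones. Pparg, the nuclear receptor that drives fat cell formation, turns on much of this programme together with its partner receptor RXR. The genes described here were chosen by a fixed set of 7 Ensembl identifiers, which belong to Adipoq, Lep, Cfd, Lpl, Cd36, Fabp4 and Pparg. Of these, 6 were read among the 33692 features of the count tables, and Lep (leptin) was not analysed here. The other 6 passed the filter on low counts.

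Back skin of rats (Rattus norvegicus) was profiled by RNA sequencing after vehicle (3 libraries) and after afatinib (3 libraries). Afatinib is a drug that binds the ErbB receptor kinases irreversibly, the epidermal growth factor receptor (EGFR) among them, and drugs of this class often cause a skin rash. The series set out to find early changes in such skin. The sources used here do not give strain, age, sex, dose or duration, nor do they state that each library came from a separate animal, so p-values measure the spread between these libraries, which may be partly technical.

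Libraries held between 15304166 and 18494281 counts. One library stood apart from its group over all features: afatinib replicate 3 correlated on average by 0.954 with the vehicle libraries and by 0.926 with the other afatinib libraries (Pearson's r of log2 CPM, which are counts scaled to library size, taken across 15497 features). The differences of Adipoq, Cfd, Lpl and Fabp4 and the ratios of Cfd, Fabp4, Lpl and Pparg to Adipoq below are given with and without it. The tables pair no identifier with a gene symbol, so markers of skin, muscle, endothelium or macrophages were not analysed here. As for the label, Adipoq, Cfd and Fabp4, which mark fat cells, were counted in every library, from 2812 to 33431 counts each, while Cd36 had at most 78. In whole skin, a smaller share of RNA from fat cells and less RNA of a gene per fat cell cannot be told apart.

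In these libraries the secreted and lipid-handling genes Adipoq, Cfd, Lpl and Fabp4 lay lower after afatinib, each without overlap between the groups, at between 53.5% (Fabp4) and 77.3% (Lpl) of the vehicle mean. Of the 15497 features tested, 13.2% lay lower without overlap and 12.9% lay higher without overlap. The regulator Pparg and Cd36 overlapped between the groups. None of the 6 genes passed an adjusted p of 0.05 in the main test (edgeR's quasi-likelihood test, p-values adjusted by the Benjamini-Hochberg method over all 15497 features), in which 0% of all features passed. DESeq2, a second test on the same counts, called Fabp4 and Cfd lower, where it called 2.88% of 15220 features lower.

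Promoter sequence is shown for Adipoq and Cfd, 2 of the genes that lay lower together, to show the DNA just upstream of each. RefSeq promoter entries (build GRCr8) were matched by symbol for 4 of the 6 genes, namely Adipoq, Cfd, Cd36 and Pparg. Each line gives the 250 bases before the annotated transcript start, on the minus strand, for Adipoq chr11:91240170-91240419 and for Cfd chr7:10465497-10465746. Capitals mark CCAAT, or its reverse complement ATTGG, a common promoter element.
Adipoq: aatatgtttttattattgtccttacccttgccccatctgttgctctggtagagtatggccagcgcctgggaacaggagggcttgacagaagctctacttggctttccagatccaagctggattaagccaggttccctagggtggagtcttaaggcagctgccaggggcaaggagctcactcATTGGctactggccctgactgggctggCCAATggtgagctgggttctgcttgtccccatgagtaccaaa
Cfd: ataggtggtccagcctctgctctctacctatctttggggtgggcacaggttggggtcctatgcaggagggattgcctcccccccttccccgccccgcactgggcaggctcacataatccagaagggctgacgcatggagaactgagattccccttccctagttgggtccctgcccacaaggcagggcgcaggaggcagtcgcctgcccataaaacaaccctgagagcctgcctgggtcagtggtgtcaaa
The Adipoq promoter held 2 such matches, which begin 69 and 42 bases before the start, and the Cfd promoter held none in this window. Over both strands, CCAAT was found in 34.0% of 33469 rat promoter windows of this length. The core element of nuclear receptors such as Pparg (AGGTCA) was found in 14.1% of all windows, 2 copies of it in tandem with any 1 base between them in 0.0508%, the palindrome bound by C/EBP factors (TTGCGCAA) in 0.140% and TATAAA in 12.9%, and none of these letters occurred in the Adipoq or Cfd window. A match or its absence is a description of these letters and no evidence on binding.

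The secreted proteins come first. Adipoq (ENSRNOG00000001821) encodes adiponectin, a hormone made almost exclusively by fat cells. Its level was 455, 438 and 426 CPM (on library sizes scaled by the TMM method) in vehicle replicates 1, 2 and 3, and 303, 300.03 and 183 CPM in afatinib replicates 1, 2 and 3. The vehicle libraries lay close together, and each afatinib library lay below each of them, with replicate 3 the lowest. The vehicle mean was 439.6 ± 14.5 CPM and the afatinib mean 261.9 ± 68.7 CPM (SD, n = 3 each). The log2 fold change was -0.75 in edgeR's quasi-likelihood test (adjusted p = 0.204). Limma voom, which gives a standard error, put the difference at -0.79 ± 0.24 (SE), with a 95% interval from -1.37 to -0.22. Counting error was small beside this, as the lowest count, 2812 in afatinib replicate 3, had an exact 95% Poisson interval of 2709 to 2918.

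Cfd (ENSRNOG00000033564) encodes adipsin (complement factor D), a serine protease of the alternative complement pathway that fat cells secrete. It was measured at 1609, 2108 and 1361 CPM in vehicle replicates 1, 2 and 3 and at 891, 1100.2 and 822 CPM in afatinib replicates 1, 2 and 3. Vehicle replicate 2 was the highest library and afatinib replicate 3 the lowest, and the highest afatinib library lay 19.1% below the lowest vehicle library. Vehicle averaged 1693 ± 381 and afatinib 938 ± 145 CPM (SD, n = 3 in each group). The log2 fold change was -0.85 (edgeR adjusted p = 0.198). The 95% interval in limma voom ran from -1.42 to -0.28. DESeq2 called Cfd lower, with a log2 fold change of -0.84 ± 0.25 (SE) and an adjusted p of 0.0179.

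Fabp4 (ENSRNOG00000010805), the fatty acid carrier of the fat cell cytoplasm that capillary endothelium and macrophages also make, had the largest difference of the 6 in edgeR, limma voom and DESeq2 alike. Its level was 787, 1038 and 812 CPM in vehicle replicates 1, 2 and 3 and 429.6, 562 and 418 CPM in afatinib replicates 1, 2 and 3. The highest afatinib library lay 28.6% below the lowest vehicle library. Vehicle averaged 879 ± 138 and afatinib 469.9 ± 79.8 CPM (SD, n = 3 in each group). The log2 fold change was -0.90 (edgeR adjusted p = 0.191). This placed Fabp4 at rank 386 by p and at the 5.12th percentile of log2 fold changes among the 15497 features. DESeq2 called it lower at an adjusted p of 0.00383, and at between 0.000943 and 0.0412 with each library left out in turn. Those fits called from 143 of 15045 features lower, without afatinib replicate 2, to 1983 of 16338, without afatinib replicate 3.

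Lpl (ENSRNOG00000012181) encodes lipoprotein lipase, the enzyme that frees fatty acids from blood triglyceride at the capillary wall, made by fat cells, muscle and macrophages. Its levels were 825, 819 and 749 CPM in vehicle replicates 1, 2 and 3, and 629, 640.8 and 581 CPM in afatinib replicates 1, 2 and 3. On the TMM scale, libraries of 1 group lay close together, and the groups stood apart by a narrow gap of 14.5% of the lowest vehicle level. The TMM factors were 0.968, 0.908 and 1.01 in vehicle and 1.11, 1.11 and 0.915 in afatinib replicates 1, 2 and 3. The gap and the spread on total counts were not computed and may differ. Vehicle averaged 798 ± 42.0 and afatinib 617 ± 32.0 CPM (SD, n = 3 in each group). The log2 fold change was -0.37 (edgeR adjusted p = 0.271). The 95% interval in limma voom ran from -0.74 to -0.0073. DESeq2 did not call it (adjusted p = 0.0643).

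Cd36 (ENSRNOG00000005906) encodes a membrane protein through which fat cells, endothelium, muscle and macrophages take up long-chain fatty acids. The row of this identifier held 17, 21 and 69 counts in vehicle replicates 1, 2 and 3 and 38, 78 and 20 counts in afatinib replicates 1, 2 and 3, or between 0.953 and 4.32 CPM. Vehicle replicate 3 and afatinib replicate 2 were high, and the groups overlapped. The exact 95% Poisson intervals of the lowest and highest count were 9.90 to 27.2 and 53.7 to 87.3 in vehicle and 12.2 to 30.9 and 61.7 to 97.3 in afatinib libraries, so libraries of 1 group differed by more than counting error. The log2 fold change was 0.34 (edgeR adjusted p = 0.788), with a 95% interval in limma voom from -1.13 to 2.07, and its sign turned when vehicle replicate 1 or afatinib replicate 2 was left out. RefSeq also lists rat genes named Cd36l1 and Cd36-ps1, whose positions and sequences were not compared with Cd36 here. How the authors treated reads that map to several places is not stated, so the row is an uncertain measure of Cd36.

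Pparg (ENSRNOG00000008839), the regulator, was measured at 24.1, 38.2 and 22.1 CPM in vehicle replicates 1, 2 and 3 and at 19.4, 29.3 and 23.2 CPM in afatinib replicates 1, 2 and 3. Replicate 2 was the highest library of each group, and the groups overlapped. Vehicle averaged 28.1 ± 8.78 and afatinib 24.0 ± 4.99 CPM (SD, n = 3 in each group). The log2 fold change was -0.23 (edgeR adjusted p = 0.624). The 95% interval in limma voom ran from -0.82 to 0.43, which holds 0 as well as differences of the size seen for Adipoq. Without vehicle replicate 2 the log2 fold change was 0.05.

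**Figure D1:**
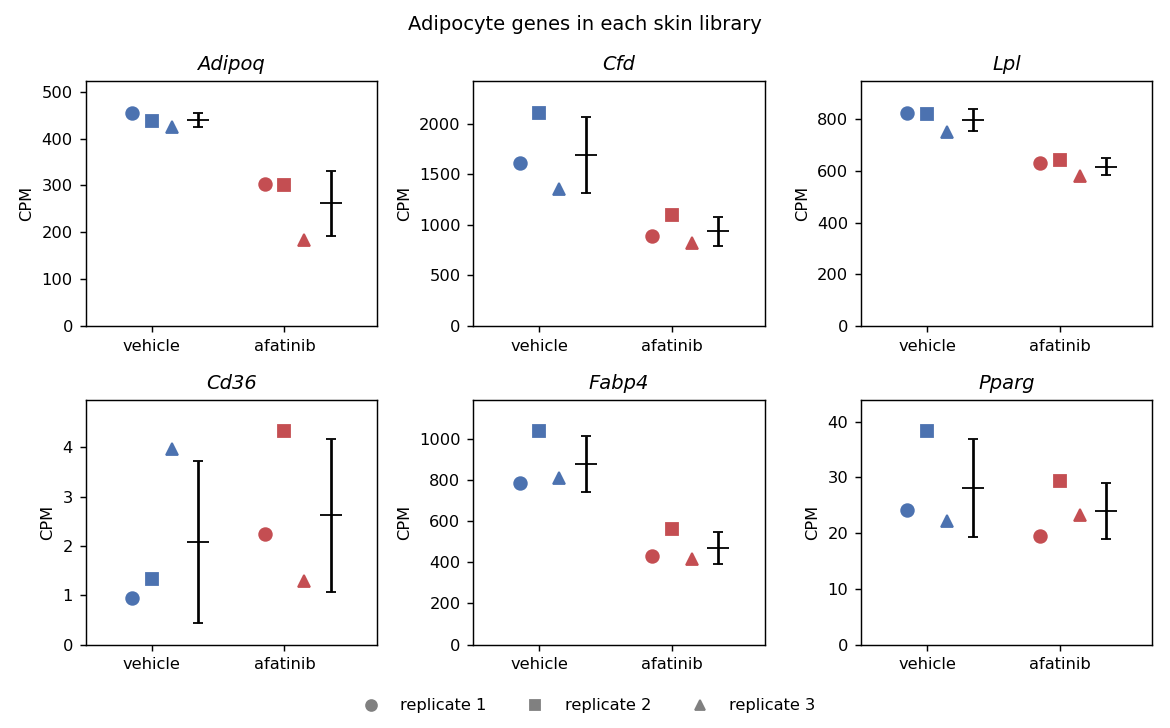
Level of each gene in CPM (vertical axis from 0, 1 scale per panel) in the 3 vehicle and 3 afatinib libraries; symbols give the replicate, and the black bar gives the mean with its SD. Adipoq, Cfd, Lpl and Fabp4 lie lower in each afatinib library than in each vehicle library, and Cd36 and Pparg overlap.

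Set beside all features, 4 of the 6 genes lay lower without overlap, against 13.2% of the 15497 features, and 0 lay higher without overlap, against 12.9%. At an unadjusted p under 0.05 and lower in edgeR there were 3 (Adipoq, Cfd and Fabp4), against 9.20% of all features. The median log2 fold change of the 6 was -0.56, and that of all features was -0.0031. Adipoq, Cfd, Lpl and Fabp4 are abundant, and of the 480 other features with a mean of at least 8 log2 CPM, a limit chosen after seeing the data, 11.7% lay lower without overlap and the median log2 fold change was -0.09. The genes were chosen with results of these data known and are few, so these shares describe the set and carry no test. With limma voom 0 of the 6 and 0% of all features passed an adjusted p of 0.05, while 4 of the 6 and 2899 of 15497 features had an unadjusted p under 0.05.

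**Figure D2:**
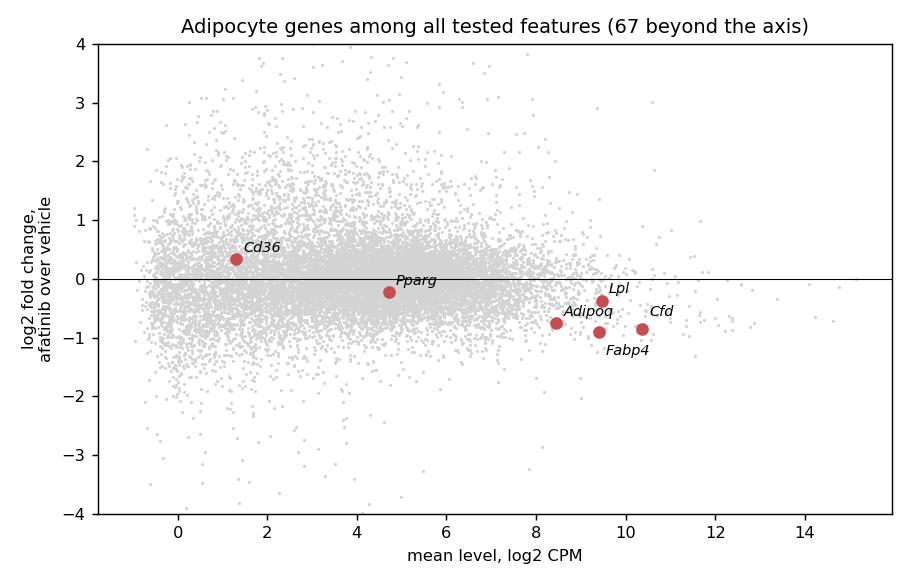
Log2 fold change of afatinib over vehicle in edgeR (vertical axis) against mean level in log2 CPM (horizontal axis) for all 15497 tested features in grey and the 6 adipocyte genes in red; 67 features lie beyond the vertical axis limits. Fabp4, Cfd and Adipoq lie at -0.90, -0.85 and -0.75, Lpl at -0.37, Pparg at -0.23 and Cd36, at the low end of the levels, at 0.34.

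Afatinib replicate 3, the afatinib library nearest to vehicle over all features, was the lowest of the 6 libraries for Adipoq, Cfd, Lpl and Fabp4. The share of all features that were lowest in this library was not computed. Its Adipoq level was 60.6% of the mean of the other 2 afatinib libraries, against 82.6% for Cfd, 84.4% for Fabp4 and 91.4% for Lpl. The 100 most abundant features held 41.4% of its counts, against 26.5% and 30.1% in the other 2 afatinib libraries and 35.5% to 40.3% in vehicle; the part of this in the levels was not tested beyond the other scalings given with the closing results. Without this library the log2 fold change of Adipoq in edgeR was -0.55 in place of -0.75 (adjusted p = 0.0561), that of Fabp4 -0.83 (adjusted p = 0.0639), that of Cfd -0.77 (adjusted p = 0.1001) and that of Lpl -0.33 (adjusted p = 0.185). So 0 of the 6 passed in edgeR where 4.98% of 16014 features passed as lower. At an unadjusted p under 0.05 and lower there were 3 of the 6 without this library, where the share of all features was 16.4%, against 9.20% with all libraries. In DESeq2 without this library 4 of the 6 passed (Adipoq, Cfd, Fabp4 and Lpl, all lower), where 12.1% of 16338 features passed as lower. With all 6 libraries DESeq2 gave Adipoq an adjusted p of 0.0501.

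**Figure D3:**
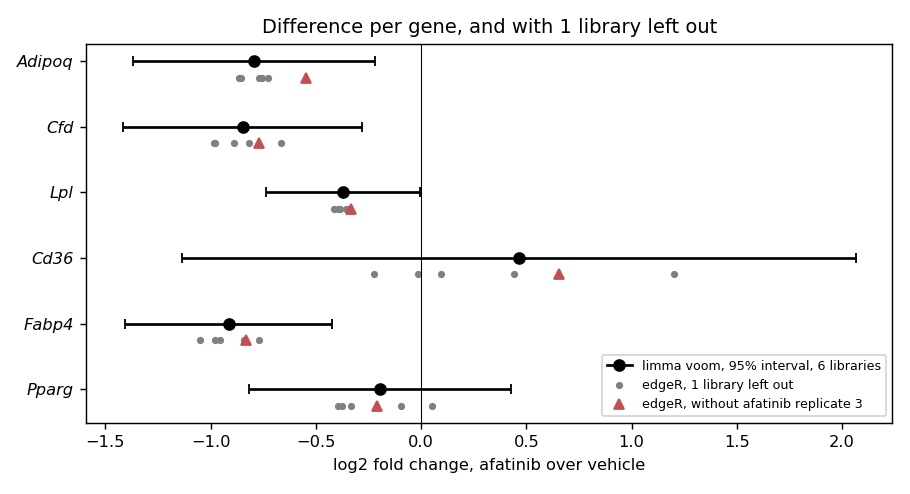
Log2 fold change of afatinib over vehicle for each gene (horizontal axis): black points with bars give limma voom estimates with 95% intervals over 6 libraries, and smaller marks below give edgeR estimates with 1 library left out, red triangles being those without afatinib replicate 3. The intervals of Adipoq, Cfd, Fabp4 and Lpl lie below 0, that of Lpl with an upper bound of -0.0073, and those of Pparg and Cd36 cross 0.

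Whether the genes differed by a common factor was asked with ratios of counts within a library, which do not depend on library size. Cfd and Fabp4 had the least variable ratio of the 15 pairs (SD of the log2 ratio 0.11 over the 6 libraries). There were 2.04, 2.03 and 1.68 Cfd counts per Fabp4 count in vehicle replicates 1, 2 and 3, and 2.07, 1.96 and 1.97 in afatinib replicates 1, 2 and 3. The highest ratio was thus 1.24-fold the lowest, while the Cfd level itself spanned 2.56-fold and the Fabp4 level 2.48-fold over the same libraries.

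Lpl differed less than Adipoq. There were 1.81, 1.87 and 1.76 Lpl counts per Adipoq count in vehicle replicates 1, 2 and 3 and 2.08, 2.14 and 3.18 in afatinib replicates 1, 2 and 3. The groups did not overlap, and the log2 ratio was higher by 0.41 after afatinib (two-sided exact permutation test over 3 against 3 libraries, p = 0.1, the smallest this design allows; Benjamini-Hochberg adjusted p = 0.5 over 5 ratios). Without afatinib replicate 3 the difference was 0.22. The result depended on the reference: set against the geometric mean of Cfd, Cd36, Fabp4 and Pparg in place of Adipoq, the log2 ratio of Lpl differed by 0.0060 (exact permutation p = 1), and by 0.28 (p = 0.3) with the uncertain Cd36 left out of that mean, an alternative chosen after seeing the data. Against Fabp4, Lpl was counted 1.05, 0.790 and 0.923 times in vehicle and 1.47, 1.14 and 1.39 times in afatinib replicates 1, 2 and 3, again without overlap.

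The other ratios to Adipoq overlapped between the groups. The log2 ratio differed by -0.05 for Cfd (exact permutation p = 0.8), -0.12 for Fabp4 (p = 0.6), 0.58 for Pparg (p = 0.2) and 1.23 for Cd36 (p = 0.3), with adjusted p-values from 0.5 to 0.8. Without afatinib replicate 3 the difference was -0.21 for Cfd, -0.28 for Fabp4 and 0.35 for Pparg. Set against the geometric mean of the other genes without Adipoq, the log2 ratios differed by -0.58 for Cfd (p = 0.1), -0.66 for Fabp4 (p = 0.1) and 0.21 for Pparg (exact permutation p = 0.6), and by -0.34, -0.43 and 0.50 with Cd36 also left out of the mean. With all libraries, Cfd and Fabp4 thus differed little relative to Adipoq and more relative to a mean that holds Lpl and Pparg. Without afatinib replicate 3 the ratio to Adipoq differed by -0.28 for Fabp4 and by 0.22 for Lpl, so this contrast depended on that library. A p that misses the threshold does not show that the genes moved alike. Pparg counts per Adipoq count were 0.0529, 0.0872 and 0.0520 in vehicle and 0.0641, 0.0977 and 0.127 in afatinib replicates 1, 2 and 3. Of the 10 pairs without Cd36, 5 had ratios that did not overlap between the groups: Lpl with each of Adipoq, Cfd and Fabp4, and Pparg with Cfd and Fabp4. The pairs share genes and are not separate observations, 3 of the 5 holding Lpl and the other two Pparg, and no background share was computed for such ratios. In each of these 5 pairs there was more Lpl or Pparg, relative to the other gene, after afatinib than after vehicle.

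**Figure D4:**
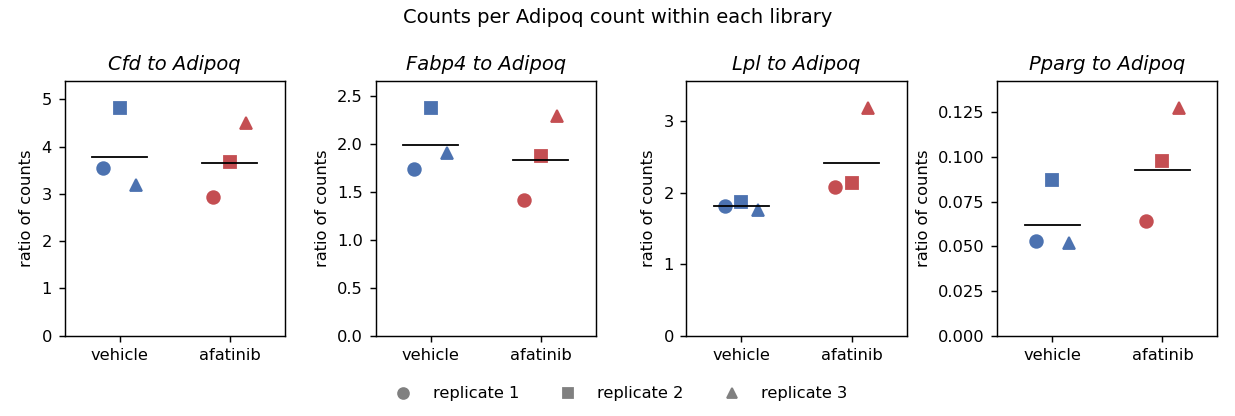
Counts of Cfd, Fabp4, Lpl and Pparg per Adipoq count within each library (vertical axes from 0); symbols give the replicate and lines the geometric mean of the group. Lpl per Adipoq lies between 1.76 and 1.87 in vehicle and between 2.08 and 3.18 in afatinib libraries, while the other 3 ratios overlap.

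As a sum, the 6 genes held 0.366% ± 0.0337 of the counts of a vehicle library and 0.243% ± 0.0542 of those of an afatinib library (SD, n = 3 each). The shares were 0.357%, 0.403% and 0.338% in vehicle replicates 1, 2 and 3 and 0.252%, 0.293% and 0.185% in afatinib replicates 1, 2 and 3, without overlap. Cfd, Lpl and Fabp4 supplied most of these counts, so the sum follows them.

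Other features were ranked by their Pearson correlation, over the 6 libraries, with the mean of the 6 genes' centred log2 CPM. The genes were not scaled to equal spread, so those that varied more between libraries shaped this mean more. The uncertain Cd36 varied most, with an SD of log2 CPM of 0.91, against 0.21 (Lpl) to 0.54 (Fabp4) for the other genes. The mean overlapped between the groups, at 0.047 in vehicle replicate 1 and 0.103 in afatinib replicate 2. The levels of Adipoq, Cfd, Lpl and Fabp4 did not overlap. Among 15491 other features the closest were ENSRNOG00000015052 (r = 0.994) and ENSRNOG00000005191 (r = 0.990), for which the files give no symbol. ENSRNOG00000015052 was measured at 2.19, 3.34 and 2.81 CPM in vehicle and at 1.65, 2.33 and 1.23 CPM in afatinib replicates 1, 2 and 3. ENSRNOG00000005191 was measured at 14.4, 16.6 and 16.1 CPM in vehicle and at 11.98, 13.9 and 10.8 CPM in afatinib replicates 1, 2 and 3. Both were lowest in afatinib replicate 3 and highest in vehicle replicate 2, as was the mean that they were picked to follow. The 6 libraries are few for a search over so many features, and the correlations are a description.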

How the data were processed

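Per the file headers, each deposited table holds the raw read counts of 1 library. HISAT2 2.0.5, featureCounts 1.5.0-p3 and DESeq2 1.16.1 are named in the submitters' processing notes; the sources used here give neither their settings nor the genome build and annotation. Samples were grouped and numbered by titles. From the deposited counts, features were filtered with filterByExpr, scaled by TMM and tested with edgeR 4.0.16 (R 4.3.3; robust quasi-likelihood, group as the only term, Benjamini-Hochberg over 15497 features). Limma 3.58.1 with voom, DESeq2 1.42.0, other scalings and filters, a replicate block and each library left out were alternatives. The procedure was run on simulated counts with planted changes. No simulated library was made to depart from its group as afatinib replicate 3 does. How the tests treat such a library was thus not tested. Intervals of counts cover counting error only. The members and lists were chosen with earlier results of these data known. The symbol-to-identifier pairs of the 7 genes come with the rule that chose them. The rule for named genes took these genes in every library, 3 genes per further list where symbols could be paired, and the 2 most alike features. Of 33692 features, 0 matched the RefSeq table (47357 genes, 0 with an Ensembl identifier), so the lists of further adipocyte, receptor, precursor and other cell type genes were not analysed here.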

Additional observations from a re-analysis of the deposited data

How the results depend on the processing

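Under RLE or upper quartile scaling, library sizes without the 100 most abundant features, no filter, a 5 CPM filter (which removed Cd36), limma voom and the replicate block in edgeR, 0 features and 0 of the 6 genes passed. DESeq2 called 1032 features (439 of 15220 lower) and 2 of the genes, both lower. With the replicate block, an alternative chosen after seeing the data, it called 372 features (143 of 16081 lower) and 2 of the genes, both lower. With 1 library left out, edgeR called 0 to 1627 features, the most without afatinib replicate 3, and 0 of the genes. Without vehicle replicates 1, 2 and 3 DESeq2 called 399, 490 and 744 features. Those called lower were 196 of 15868, 277 of 17165 and 325 of 15057 features, and 1, 1 and 3 of the genes. Without afatinib replicates 1, 2 and 3 it called 336, 270 and 4085 features. Of these fits, the lower calls were 181 of 15461, 143 of 15045 and 1983 of 16338 features, and 1, 2 and 4 of the genes. Adipoq, Cfd, Lpl and Fabp4 kept their sign in each of 21 alternatives, with edgeR and limma adjusted p-values of 0.0561 to 0.457, 0.1001 to 0.457, 0.185 to 0.498 and 0.0639 to 0.457. With 1 library left out, the log2 fold change of Cd36 ran from -0.23 to 1.20 in edgeR and from -0.22 to 1.22 in DESeq2 (-0.0045 without vehicle replicate 1), and that of Pparg from -0.40 to 0.052 and from -0.39 to 0.065. With 1 library left out, the log2 ratio to Adipoq ran from -0.21 to 0.12 for Cfd and from -0.28 to 0.061 for Fabp4, turning without vehicle replicate 2 or afatinib replicate 1. With the geometric mean of the other genes as the reference it was -0.58 for Cfd, -0.66 for Fabp4, 0.0060 for Lpl, 0.21 for Pparg and 1.03 for Cd36. The summed CPM differed by -1526 and, over the smaller library sizes without the 100 most abundant features, by -2299.8, since each value is then divided by less. The replicate numbers are those of the titles; afatinib replicates 1, 2 and 3 are headed 3, 4 and 5 in the deposited tables, so the block pairs by title only. They gave no sign of pairing: deviations of same-numbered libraries correlated by 0.20, -0.21 and -0.39. With the replicate block the edgeR adjusted p was 0.386 for Adipoq, Cfd and Fabp4, and the log2 ratio of Lpl to Adipoq was 0.41 (exact sign-flip p = 0.25, the smallest for 3 pairs). With 3 libraries a group, the 95% intervals of Pparg and Cd36 hold differences in both directions.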
